A study of Arabidopsis thaliana with 9 samples.

Results

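Overexpression of *MeGRXC15*, a cassava CC-type glutaredoxin (GRX), was compared with the empty vector in mature leaves of *Arabidopsis thaliana*, across all transcripts that the Affymetrix ATH1 array measures. The comparison used 6 of the 9 arrays of the series, the 3 titled MeGRX232-OE (lines 3, 9 and 12, called *MeGRXC15-OE* here after the study) and the 3 titled pG1300 (numbered 1, 2 and 3). The *MeGRXC15-OE* plants carried 35S:MeGRXC15:GFP in *pG1300*, a vector with GFP, in the Col-0 accession, so that the CaMV 35S promoter drove the fusion in most tissues. Each of their arrays held RNA of a separate homozygous line. The controls carried the empty *pG1300*, without a glutaredoxin, and the study speaks of control lines without saying which line each array held. All plants were 45 days old and grew with 12 h of light at 22 °C. The other 3 arrays, titled MeGRX360-OE (lines 5, 11 and 20), carry another overexpressed gene by their titles. They served to ask which changes differed between both overexpressions, and they also entered the estimate of the spread in every test. The array was designed for *Arabidopsis* transcripts, so the cassava transgene itself was not checked.

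CC-type GRXs are small plant oxidoreductases with neighbouring cysteines in the active site, and they occur in land plants only. In *Arabidopsis* they are known as ROXY proteins, bind TGA-type bZIP factors in the nucleus and act with them in floral development and in crosstalk of salicylic acid with jasmonate and ethylene. The classical GRXs, in contrast, pass electrons from glutathione to disulfides in many compartments.

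An ATH1 probe set is a group of short oligonucleotides that report a transcript, and its intensity is a brightness without an absolute unit, so fold changes were taken within a probe set, and a bright or dim signal below is not an amount of RNA. The log2 intensity of 22746 probe sets was fitted with limma, and only probe sets with a Benjamini-Hochberg adjusted p under 0.05 are called and described as rising or falling in *MeGRXC15-OE*. With 3 arrays in each group, their number limits the precision. In bulk leaf RNA, fewer cells of a type and less RNA per cell cannot be told apart. *RCA*, the Rubisco activase of mesophyll, was bright on every array, at 6875 to 8038 in *MeGRXC15-OE* and 11125 to 11615 in vector leaves, whereas the root hair expansin *EXPA7* stayed at 12.1 to 16.8 and 16.1 to 18.5. Most other cell type markers have no named probe set here.

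In all, 5009 of 22746 probe sets (22.0%) were called, 2098 higher (9.22%) and 2911 lower (12.8%) in *MeGRXC15-OE* leaves, and the median log2 fold change over all probe sets was 0.00. Fitted on the 6 arrays only, without MeGRX360-OE, 1932 rose and 2741 fell. Changes above 2-fold were made by 1167 probe sets that rose (5.13%) and 1298 that fell (5.71%). The largest changes were mostly rises, since 209 probe sets rose and 48 fell by more than 8-fold, and 85 rose and 8 fell by more than 16-fold. The groups did not overlap in 2076 of the probe sets that rose and 2897 of those that fell, which the test itself favours. Over all 22746 probe sets, called or not, *MeGRXC15-OE* lay without overlap above vector in 3877 and below it in 4572.

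**Figure D1:**
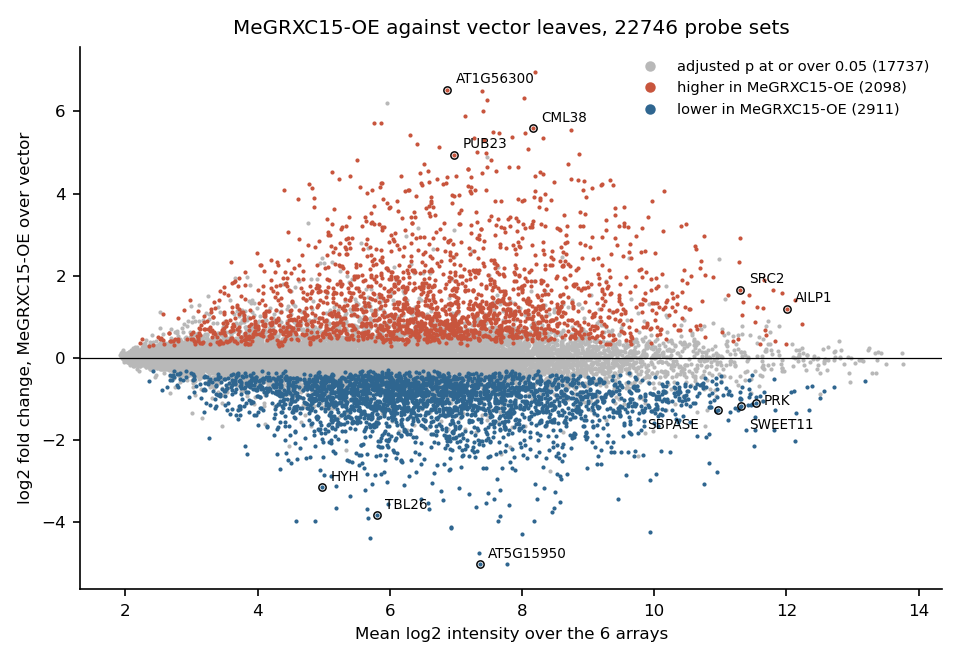
log2 fold change of *MeGRXC15-OE* over vector leaves (y axis) against the mean log2 intensity over the 6 arrays (x axis), 1 point per probe set, coloured by call, with 11 genes of the text circled. The 2098 rises reach beyond 6 on the log2 scale, and the 2911 falls lie mostly within 4 of 0.

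The calls were also counted by signal in vector leaves. Since that signal is itself a term of the fold change, the classes describe the calls and test nothing. In the brightest of 5 equal classes of vector intensity, 1361 of 4549 probe sets fell (29.9%) and 506 rose (11.1%). In the middle class, 505 of 4549 fell (11.1%) and 614 rose (13.5%), and in the dimmest only 9 of 4550 fell and 81 rose. The lowest intensity of any array lay between 3.242 and 3.598, and the dimmest class, at 3.65 to 7.83, could fall little above it.

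**Figure D2:**
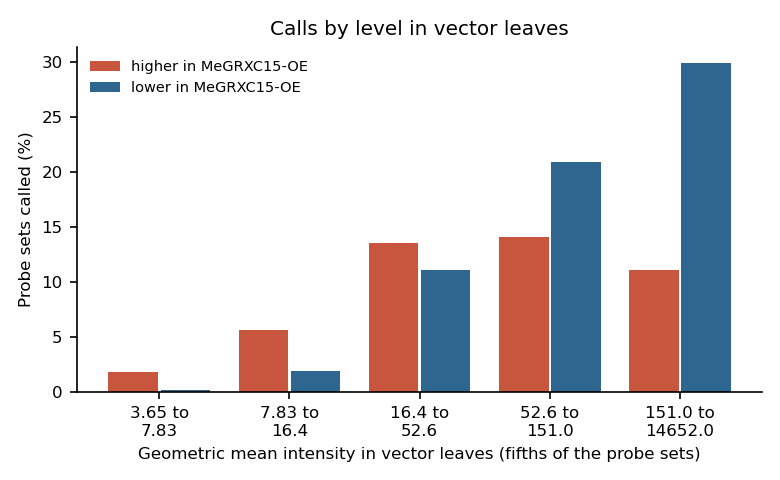
Percentage of probe sets called higher (left bar of each pair) and lower (right bar) in *MeGRXC15-OE*, in 5 equal classes of the geometric mean intensity in vector leaves. The share that fell is 0.198% in the dimmest class and 29.9% in the brightest, and the share that rose is 14.1% in the class next to the brightest.

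The 3 lines moved together. Every line lay above the vector mean in all 2098 probe sets that rose and below it in all 2911 that fell, which the test itself favours. More than 2-fold from the vector mean in every single line were 852 of the rises and 762 of the falls. The median rise was 1.07 in line 3, 1.06 in line 9 and 1.16 in line 12 on the log2 scale, and the median fall -0.92, -0.98 and -0.88. The median SD of a probe set among the lines was 0.183, against 0.14 among the vector arrays, both in log2 units.

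The 12 largest rises without overlap, among probe sets that the platform annotation pairs with a single gene, were of genes with intensities of 172 or less in vector leaves. *AT1G56300*, known by its locus only, led with intensities of 1078, 897 and 1464 in *MeGRXC15-OE* lines 3, 9 and 12, against 13.5, 10.8 and 12.3 in vector leaves. All 3 lines thus stood far above all 3 controls (log2 fold change 6.53, SE 0.22, adjusted p = 3.8e-06 from limma). *CML38*, a calmodulin-like calcium sensor, had 1627, 2031 and 2360 in *MeGRXC15-OE*, against 29.1, 62.3 and 38.7 in vector leaves (5.59, SE 0.27, adjusted p = 1.24e-05), and its relative *CML37* rose by 5.73 (SE 0.40). *PUB23*, a U-box ubiquitin ligase that restrains immune signalling, had 539, 708 and 891 in *MeGRXC15-OE* and 20.1, 27.5 and 20.8 in vector leaves (4.95, SE 0.30, adjusted p = 3.27e-05). The other 8 genes have a locus only, *AT1G05575*, *AT3G02840*, *AT2G22880*, *AT2G25735*, *AT5G35735*, *AT1G69890*, *AT3G01830* and *AT4G29780*, and rose by 4.96 to 6.49.

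The 12 largest falls among the same probe sets held 2 genes with a symbol, and some probe sets without such a name fell as far. *HYH*, a bZIP factor that acts with HY5 in light signalling, had 8.38, 11.1 and 12.6 in *MeGRXC15-OE* leaves, against 152, 134 and 40.5 in vector leaves (log2 fold change -3.15, SE 0.44, adjusted p = 0.0013 from limma). *TBL26*, of the family of wall acetyltransferases named after trichome birefringence, had 15.9, 12.8 and 16.3, against 328, 469 and 60.7 (-3.82, SE 0.63, adjusted p = 0.00277). Vector array 3 was the lowest control for both. Neither *HYH* (adjusted p = 0.0619) nor *TBL26* (0.0845) passed in an ordinary two-sample test. *AT5G15950* led these 12, with 35.1, 23.8 and 28.8 in *MeGRXC15-OE* and 1292, 1523 and 416 in vector leaves (-5.02, SE 0.44, adjusted p = 1.56e-04). The other 9 loci had log2 fold changes between -4.39 (*AT2G15020*) and -3.21 (*AT1G47400*). Among them was *AT1G64500* (-3.85, SE 0.32), which the study lists among glutaredoxin sequences. *AT3G28270* (-3.22, SE 0.87) was no longer called without *MeGRXC15-OE* replicate 1 (adjusted p = 0.0568 from limma), vector replicate 1 (0.0864) or vector replicate 2 (0.0915), and in the fit on 6 arrays (0.0683).

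Among the brightest transcripts that changed at least 2-fold, *AILP1* had 6432, 5647 and 6608 in *MeGRXC15-OE* leaves, against 2902, 2074 and 3308 in vector leaves (log2 fold change 1.20, SE 0.17, adjusted p = 0.0013 from limma). *PIFI*, named for a rise of chlorophyll fluorescence after illumination, had 3747, 4245 and 4574, against 1687, 1556 and 1593 (1.37, SE 0.11, adjusted p = 8.41e-05). *CCL* (1.90, SE 0.23) and *SRC2* (1.66, SE 0.18) rose too. *GAMMA-VPE*, a vacuolar processing enzyme, rose by 1.57 (SE 0.41, adjusted p = 0.0242) but was carried by line 12, at 12011 against 5323 and 4802 in the other lines. Without *MeGRXC15-OE* replicate 3, which is line 12, its adjusted p was 0.0513, without vector replicate 2 it was 0.0867 and without vector replicate 3 it was 0.072. *COR47*, a dehydrin, rose by 1.54 (SE 0.37) and was lost without *MeGRXC15-OE* replicate 1 (adjusted p = 0.0615) or vector replicate 2 (adjusted p = 0.0569).

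Among the 6 brightest falls of at least 2-fold were 2 enzymes of the Calvin cycle. *PRK*, phosphoribulokinase, had 2204, 2124 and 1803 in *MeGRXC15-OE* and 4070, 4596 and 4311 in vector leaves (-1.09, SE 0.13, adjusted p = 5.38e-04 from limma). *SBPASE*, sedoheptulose-bisphosphatase of the same cycle, had 1226, 1483 and 1164, against 2931, 3773 and 2727 (-1.28, SE 0.18, adjusted p = 0.00146). In neither gene did the groups overlap. The loci *AT1G09310* (-1.76, SE 0.38), *AT1G65490* (-1.33, SE 0.18) and *AT2G41090* (-1.43, SE 0.34) fell as well, the last without a call when *MeGRXC15-OE* replicate 1 (adjusted p = 0.0577), vector replicate 1 (0.0532) or vector replicate 2 (0.0645) was left out.

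Beyond single genes, 34 lists of leaf functions, most of them outside the hormone and stress responses that the study examined, were counted with 1 probe set per gene. Since the platform annotation used here left many genes unnamed, 15 lists had at least 5 genes measured, 14 had fewer and 5 had none. The counts below are read against the 9.22% of all probe sets that rose and the 12.8% that fell. The lists and their members were chosen with earlier results of these data known, so the counts are no independent evidence.

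**Figure D3:**
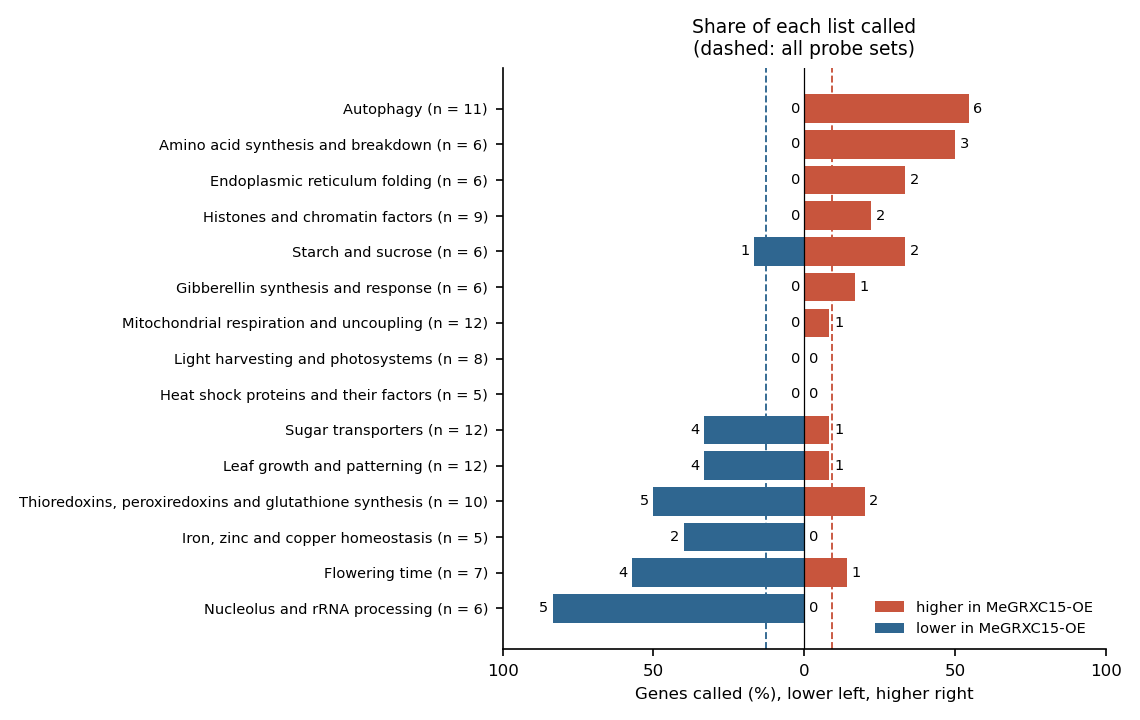
Percentage of the measured genes of 15 lists called higher (bars to the right) or lower (bars to the left) in *MeGRXC15-OE*, with the number called beside each bar. Dashed lines mark the 9.22% and 12.8% over all probe sets; the autophagy list, with 6 of 11 higher, and the nucleolus list, with 5 of 6 lower, lie at the ends.

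Most of the nucleolar genes measured fell. Of 6 nucleolar genes measured, 5 fell, none rose at the adjusted or at an unadjusted p under 0.05, nor in an ordinary two-sample test, and the median log2 fold change was -1.10, against 0.00 over all probe sets. In the ordinary test 4 of the 5 falls did not pass (*NRPA1* 0.0725, *NRPA2* 0.0674, *AT5G14520* 0.0829 and *RRP41L* 0.142 as adjusted p). *NRPA1*, the largest subunit of RNA polymerase I, which transcribes the rRNA precursor, had 15.5, 15.5 and 25.2 in *MeGRXC15-OE*, against 41.3, 43.3 and 64.6 in vector leaves (-1.42, SE 0.26, adjusted p = 0.00494 from limma). *NRPA2*, its second largest subunit, had 30.3, 37.0 and 59.5, against 108, 101 and 133 (-1.48, SE 0.28, adjusted p = 0.00548). All *MeGRXC15-OE* lines lay below all vector arrays in both, with line 12 the least reduced.

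Processing factors were measured beside them. *AT5G14520*, the pescadillo gene *PES* of large subunit assembly, had 105, 89.1 and 149 in *MeGRXC15-OE*, against 229, 227 and 335 in vector leaves (-1.21, SE 0.26, adjusted p = 0.00958 from limma). *AT3G09720*, the RNA helicase gene *RH57*, fell by 0.68 (SE 0.16) and *RRP41L*, related to an exosome subunit, by 0.98 (SE 0.23, adjusted p = 0.0547 without *MeGRXC15-OE* replicate 2). *RRP41*, the exosome core subunit that trims rRNA, did not pass (-0.14, SE 0.12, adjusted p = 0.522).

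The change was not even across RNA polymerases, in a family count made after the values were seen. Of 12 subunits measured, 5 fell, and their median was -0.33. Beside both polymerase I genes these were *NRPB12* (-0.76, SE 0.15, adjusted p = 0.00563 from limma), a small subunit common to several polymerases, *NRPC2* of polymerase III (-0.90, SE 0.22) and *NRPB7* of polymerase II (-0.93, SE 0.29, adjusted p = 0.0497). *NRPC2* was no longer called without *MeGRXC15-OE* replicate 1 (adjusted p = 0.0594) or 2 (0.056). *NRPB7* was not called without *MeGRXC15-OE* replicate 1 (adjusted p = 0.135) or 2 (0.143), without vector replicate 1 (0.143) or 2 (0.159), with a replicate block (adjusted p = 0.0725) and in the fit on 6 arrays (0.0779). *NRPC1*, the largest subunit of polymerase III, had a log2 fold change of 0.14 (SE 0.19).

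The gene ontology listing of the study gave the same direction, but its genes were selected by the study for their change on these same arrays, so its counts are no independent evidence. Over its 1231 probe sets with whole lists, 41.1% rose and 48.4% fell. Under rRNA processing all 19 fell (median -1.36) and under translational elongation all 10 fell (median -1.19). *NAP57*, the dyskerin that makes pseudouridine in rRNA, had 113, 115 and 174 in *MeGRXC15-OE*, against 466, 483 and 627 in vector leaves (-1.99, SE 0.35, adjusted p = 0.004 from limma). *IMP4*, of the small subunit processome, fell by 1.34 (SE 0.17) and *TOZ* by 1.36 (SE 0.27). *SCO1*, the plastid elongation factor G, fell by 1.36 (SE 0.13), with no overlap between 756 to 838 and 1941 to 2150.

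On the same arrays the manufacturer's 25S rRNA probe set was brighter in *MeGRXC15-OE*, at 430 to 616 (mean 546 ± 101, SD, n = 3), against 279 to 350 in vector leaves (324 ± 39.6, SD, n = 3). The ratio of *GAPDH* signals from both transcript ends was 10.9 ± 0.432 in *MeGRXC15-OE* and 9.52 ± 0.888 in vector leaves (SD, n = 3 each), the ubiquitin ratio 2.53 ± 0.0563 and 2.47 ± 0.383, and the actin ratio 17.2 ± 3.29 and 18.5 ± 0.642. The part of these values in the fall of the rRNA genes was not tested. None of the nucleolar, polymerase or rRNA processing genes named above passed in the direct contrast with MeGRX360-OE.

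Of the autophagy genes measured more than the array's share rose. The list matched 37 genes, and those measured were ATG8 genes apart from *ATG3* and *RAPTOR1*. None of the 11 measured fell at the adjusted or at an unadjusted p under 0.05, or in an ordinary two-sample test. Of the 11, 6 rose and the median log2 fold change was 0.80, against 0.00 over all probe sets. In the ordinary test *ATG8G* did not pass (adjusted p = 0.0725). ATG8 proteins are joined to a lipid of the growing autophagosome and bind its cargo. *ATG8D* had 316, 355 and 444 in *MeGRXC15-OE*, against 146, 118 and 115 in vector leaves (1.55, SE 0.25, adjusted p = 0.00248 from limma). *ATG8F* had 2014, 2007 and 1723, against 988, 881 and 1089 (0.96, SE 0.11, adjusted p = 5.92e-04). Each line stood above each control in both genes.

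*ATG8G* (0.92, SE 0.19), *APG8H*, also called *ATG8I* (0.80, SE 0.14), and *ATG8C* (0.69, SE 0.12) rose as well, as did *ATG3* (0.53, SE 0.12), the enzyme that carries ATG8 to the lipid. *ATG8E* (1.12, SE 0.35, adjusted p = 0.0511 from limma) and *APG8A* (0.84, SE 0.27, adjusted p = 0.0558) lay just outside the threshold. Leaving out *MeGRXC15-OE* replicate 3 or vector replicate 3 brought *ATG8E* past it (adjusted p = 0.021 and 0.0277). *ATG8B* (0.48, SE 0.34) and *ATG8H* (0.46, SE 0.19) did not pass either. *RAPTOR1*, a partner of the TOR kinase, which holds autophagy back, had 0.11 (SE 0.13). Whether probes for these closely related ATG8 genes read each other's transcripts was not tested.

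Some genes of endosomal sorting and membrane fusion were looked up after their values were seen. Of 10 VPS genes, 4 rose, 1 fell and 5 did not pass. The 4 encode proteins of ESCRT-III or its close relatives, which pinch off vesicles into endosomes. *VPS2.1* had 796, 803 and 1111 in *MeGRXC15-OE*, against 286, 287 and 257 in vector leaves (1.69, SE 0.15, adjusted p = 1.44e-04 from limma). *VPS20.1* rose by 2.08 (SE 0.14), *VPS60.1* by 1.40 (SE 0.17) and *VPS46.2* by 1.08 (SE 0.12). *VPS9B*, of a family that activates Rab GTPases, fell by 0.83 (SE 0.16).

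Under vesicle-mediated transport in the study's listing all 13 probe sets rose, with the caveat on that listing given above. *SYP122*, a plasma membrane syntaxin, had 1051, 1159 and 1448 in *MeGRXC15-OE*, against 62.9, 71.2 and 82.3 in vector leaves (4.07, SE 0.16, adjusted p = 5.52e-06 from limma). *VAM3*, a syntaxin of the vacuole, rose by 1.35 (SE 0.16). *TET8*, a tetraspanin found on secreted vesicles, had 3101, 3462 and 4122, against 643, 758 and 977 (2.18, SE 0.18, adjusted p = 1.3e-04). Of 15 tetraspanin genes 4 rose.

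Some ubiquitin ligases of the U-box type rose. Of 9 PUB genes with a platform name, 3 rose, *PUB22* (2.24, SE 0.23), *PUB23* and *PUB24* (1.57, SE 0.32). Under protein ubiquitination in the study's listing 9 of 10 rose. *UBC5*, an E2 enzyme that hands ubiquitin to such ligases, had 1088, 1425 and 1121 in *MeGRXC15-OE*, against 436, 365 and 442 in vector leaves (1.54, SE 0.14, adjusted p = 1.77e-04 from limma). The proteasome subunit gene *RPN12a*, the only gene of its list measured, had a log2 fold change of 0.01 (SE 0.11).

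**Figure D4:**
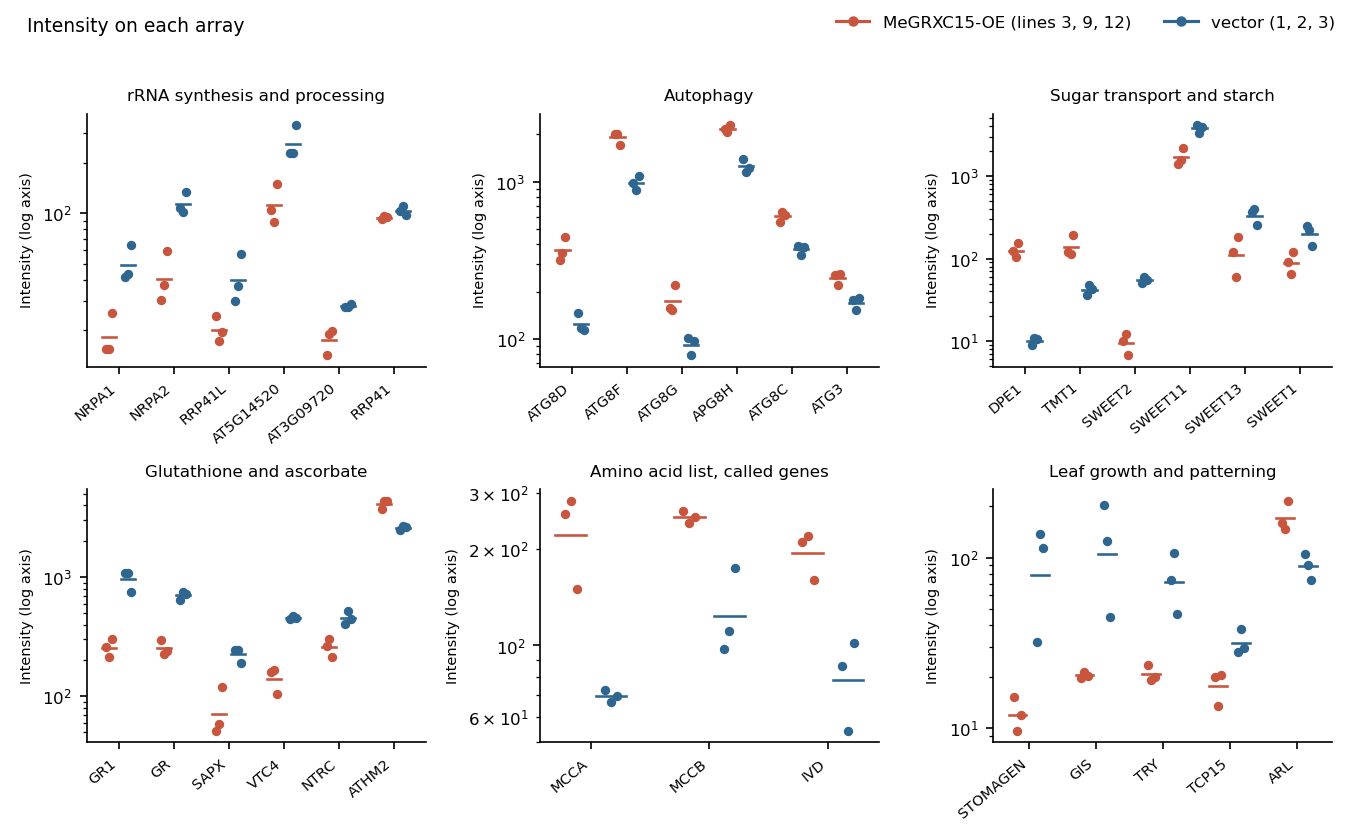
Intensity (log y axes) of list genes on each array, with *MeGRXC15-OE* lines to the left of vector arrays for each gene and a bar at each geometric mean. *NRPA1* and *NRPA2* lie at 15.5 to 59.5 in *MeGRXC15-OE* and 41.3 to 133 in vector leaves, *ATG8D* at 316 to 444 and 115 to 146, and *DPE1* at 104 to 154 and 9.05 to 11.

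The list of amino acid synthesis and breakdown matched 56 genes, of which 6 were measured. Of these 6, 3 rose in *MeGRXC15-OE* leaves, and these are of leucine breakdown, a grouping made after the calls were known. None of the 6 fell at the adjusted or at an unadjusted p under 0.05, or in an ordinary two-sample test, and the list median was 1.17. In the ordinary test *IVD* (adjusted p = 0.0817) and *MCCB* (0.0893) did not pass. *MCCA*, the biotin-bearing subunit of methylcrotonyl-CoA carboxylase, had 257, 283 and 150 in *MeGRXC15-OE*, against 72.7, 66.7 and 69.4 in vector leaves (1.67, SE 0.21, adjusted p = 8.33e-04 from limma). *MCCB*, its other subunit, had 263, 242 and 251, against 97.5, 111 and 174 (1.03, SE 0.21, adjusted p = 0.00756). *IVD*, isovaleryl-CoA dehydrogenase of the step before, had 210, 220 and 160, against 86.4, 54.1 and 102 (1.32, SE 0.24, adjusted p = 0.00421).

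In all 3 genes the lines lay above every control. *ALDH6B2*, an aldehyde dehydrogenase of valine breakdown chosen after its value was seen, rose by 1.66 (adjusted p = 3.19e-04 from limma). *AT4G33150*, which carries the lysine breakdown enzyme LKR/SDH, spread widely, with 497, 127 and 591 in *MeGRXC15-OE* and 188, 73.0 and 115 in vector leaves, and did not pass (1.52, SE 0.57, adjusted p = 0.0945). It passed without *MeGRXC15-OE* replicate 2, which is line 9 (2.22, adjusted p = 0.00583). *BCAT4*, a transaminase of methionine chain elongation, had -0.16 (SE 0.55), and *MGL*, a methionine lyase, -0.08 (SE 0.40). The study's listing went the other way for synthesis. Under amino acid biosynthesis 12 of 15 probe sets fell and 1 rose (median -1.25), with the caveat on that listing given above.

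Sugar transporters moved both ways. Of 12 measured, 4 SWEET genes fell and 1 gene rose, with a list median of -0.03. SWEET proteins let sugars pass down their gradient, and SWEET11 loads sucrose for export from the leaf. *SWEET11* had 1410, 1581 and 2165 in *MeGRXC15-OE*, against 4153, 3330 and 3954 in vector leaves (-1.17, SE 0.21, adjusted p = 0.00433 from limma). *SWEET2*, a vacuolar member, had 10.0, 12.2 and 6.76, against 50.3, 60.1 and 54.8 (-2.55, SE 0.33, adjusted p = 9.39e-04). *SWEET1* (-1.16, SE 0.26) and *SWEET13* (-1.59, SE 0.41) fell too, *SWEET13* without a call when *MeGRXC15-OE* replicate 1 (adjusted p = 0.0563), vector replicate 1 (0.0683) or vector replicate 2 (0.083) was left out.

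The list's other members are the 3 TMT carriers, of which *TMT1* rose and *TMT2* and *TMT3* (0.16, SE 0.16) did not pass. *TMT1*, which loads sugar into the vacuole, had 119, 115 and 196 in *MeGRXC15-OE*, against 36.5, 47.7 and 42.7 in vector leaves (1.72, SE 0.26, adjusted p = 0.00179 from limma). *STP1*, a proton-coupled monosaccharide carrier named through the study's listing, had 2488, 3214 and 1270, against 219, 125 and 462 (3.21, SE 0.48, adjusted p = 0.00178), and *PMT6* (4.19, SE 0.54) and *STP14* (3.07, SE 0.48) rose from the same listing, where *AT1G19450* fell by 1.89 and *STP4* did not pass (1.14, adjusted p = 0.056). Line 12 was the lowest line in *STP1*, *PMT6* and *STP14*. Neither *STP1* (adjusted p = 0.0676) nor *STP14* (0.0675) passed in the ordinary test. *TMT2* had 0.68 (SE 0.30, adjusted p = 0.157), and passed without *MeGRXC15-OE* replicate 2 (1.02, adjusted p = 0.0196).

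Starch and sucrose genes changed in both directions, with 2 rises and 1 fall among 6 and a median of 0.00. *DPE1*, the plastid enzyme that rearranges maltotriose, had 123, 104 and 154 in *MeGRXC15-OE*, against 9.05, 11 and 10.5 in vector leaves (3.63, SE 0.17, adjusted p = 9.55e-06 from limma). The *PWD* gene *AT5G26570*, whose product phosphorylates starch, had 272, 215 and 353, against 102, 134 and 121 (1.21, SE 0.19, adjusted p = 0.00213). *APL3*, a subunit of the enzyme that starts starch synthesis, had 26.6, 16 and 27.5, against 115, 178 and 48.0 (-2.13, SE 0.44, adjusted p = 0.00879). The second gene listed as *PWD*, *AT4G24450*, did not pass (-0.15, SE 0.61), and in the ordinary test neither *APL3* (adjusted p = 0.118) nor *AT5G26570* (0.0598) passed.

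The study's listing has 8 probe sets under starch catabolism, of which 7 rose and 1 fell. *SEX1*, the glucan water dikinase, had 1224, 995 and 1709 in *MeGRXC15-OE*, against 275, 410 and 305 in vector leaves (1.97, SE 0.24, adjusted p = 6.37e-04 from limma), and the debranching enzyme gene *LDA* rose by 1.61 (SE 0.21). *CT-BMY*, a plastid beta-amylase, fell by 2.25 (SE 0.37). Under the listing's term glycolysis, which also holds plastid enzymes, 12 of 13 fell, with the caveat on that listing given above. Among these, *FBA1*, a plastid aldolase, had 1509, 1371 and 1299, against 6219, 6226 and 6011 (-2.15, SE 0.12, adjusted p = 2.56e-05 from limma). The plastid *GAPA-2* (-1.52, SE 0.22) and the hexokinase gene *HXK1* (-1.11, SE 0.21) were others.

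Many starch and sugar genes follow the time of day, and clock genes differed on these arrays. *LHY*, a clock factor of the morning, had 51.7, 31.8 and 34.0 in *MeGRXC15-OE*, against 1376, 1239 and 1154 in vector leaves (-5.03, SE 0.19, adjusted p = 5.52e-06 from limma). *GI*, a clock gene described below, rose by 1.79 (SE 0.24, adjusted p = 0.00109 from limma). The sources used here do not give the time of day at harvest. The part of clock phase in the starch and sugar values, or in any other value given here, was not tested.

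The redox list fell more than it rose, with 5 lower and 2 higher among 10 genes and a median of -0.45. Glutathione reductase keeps the glutathione that GRXs draw on in its reduced form, and both of its genes fell. *GR1*, the cytosolic and peroxisomal enzyme, had 261, 214 and 302 in *MeGRXC15-OE*, against 1090, 1083 and 752 in vector leaves (-1.90, SE 0.20, adjusted p = 3.27e-04 from limma). *GR*, the organellar enzyme, had 298, 226 and 242, against 647, 751 and 728 (-1.48, SE 0.17, adjusted p = 5.52e-04).

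Ascorbate genes of the list fell as well. *VTC4*, a phosphatase that helps to make ascorbate, had 161, 165 and 104 in *MeGRXC15-OE*, against 442, 473 and 453 in vector leaves (-1.70, SE 0.18, adjusted p = 3.82e-04 from limma). *SAPX*, a stromal ascorbate peroxidase, fell by 1.66 (SE 0.29), and *TAPX*, its thylakoid relative, did not pass (-0.08, SE 0.27). *NTRC*, a plastid thioredoxin reductase, fell by 0.82 (SE 0.17). The rises were in *ATHM2*, an m-type thioredoxin (0.67, SE 0.10), and *SRX*, sulfiredoxin (0.35, SE 0.10, adjusted p = 0.0377). The count of thioredoxin list members that rose was 1 without *MeGRXC15-OE* replicate 1 or 2, without any single vector replicate, on 6 arrays only and with a replicate block. In the ordinary test 3 fell and 1 rose, and *SAPX* did not pass (adjusted p = 0.0844).

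*VTC4* was the only list gene that also passed in the direct contrast with MeGRX360-OE. Its log2 difference, *MeGRXC15-OE* minus MeGRX360-OE, was -1.31 (SE 0.18, adjusted p = 0.0482 by limma).

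The few light harvesting and photosystem genes measured, 8 of 54 matched, did not pass the test. Of 8 measured, none passed at the adjusted or at an unadjusted p under 0.05, or in an ordinary two-sample test, and the list median was 0.03. *PSAE-1*, a photosystem I subunit, had 7291, 7448 and 5856 in *MeGRXC15-OE*, against 6026, 7040 and 7287 in vector leaves (0.01, SE 0.12), and *LHCB4.2* had -0.36 (SE 0.22). The groups overlapped in both. Under photosynthesis in the study's listing, 12 of 17 probe sets fell and 3 rose (median -1.09), with the caveat on that listing given above.

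Chlorophyll synthesis held opposite changes, from the study's listing with 3 rises and 7 falls among 11. *PORB*, a light-dependent protochlorophyllide reductase with a platform name, had 836, 952 and 434 in *MeGRXC15-OE*, against 49.6, 78.6 and 205 in vector leaves (2.92, SE 0.51, adjusted p = 0.00376 from limma). *GUN4*, which activates magnesium chelatase, had 762, 775 and 274, against 2415, 2818 and 2850 (-2.30, SE 0.35, adjusted p = 0.00202). Neither *PORB* (adjusted p = 0.0841) nor *GUN4* (0.072) passed in the ordinary test.

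Plastid-encoded genes moved little. Of 69 measured, 5 rose and 1 fell, a share below that of the whole array in both directions. *rpl20* (1.39, SE 0.33) and *rpl33* (-0.68, SE 0.16), both for ribosomal proteins of the plastid, passed in opposite directions. *rpl20* was no longer called without *MeGRXC15-OE* replicate 1 (adjusted p = 0.064) or vector replicate 1 (0.0607) or 2 (0.053), and *rpl33* without *MeGRXC15-OE* replicate 1 (0.0576) or vector replicate 2 (0.0663). Of 5 nuclear CRR genes, which serve plastid RNA editing or the NDH complex, 3 fell, and of 8 OTP genes, which process organelle transcripts, 1 fell. The CRR genes were *CRR41* (-1.57, SE 0.22), *CRR21* (-1.51, SE 0.21) and *CRR28* (-0.41, SE 0.12, adjusted p = 0.0421), the last without a call when any of *MeGRXC15-OE* replicates 1 to 3 or vector replicates 1 and 2 was left out (adjusted p = 0.0762 to 0.142) and in the fit on 6 arrays (0.0556).

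Light signalling and flowering genes changed in part. *FHL*, which carries phytochrome A into the nucleus, had 181, 94.8 and 152 in *MeGRXC15-OE*, against 20.2, 15.4 and 20.2 in vector leaves (2.90, SE 0.28, adjusted p = 2.14e-04 from limma). Of 7 flowering genes 1 rose and 4 fell, with a median of -0.51. *GI*, a clock and flowering regulator that peaks late in the day, had 188, 171 and 301, against 72.2, 71.9 and 45.6 (1.79, SE 0.24, adjusted p = 0.00109). It did not pass in the ordinary test (adjusted p = 0.0553).

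*SNZ*, an AP2-type repressor of flowering, had 26.3, 19.0 and 13.1 in *MeGRXC15-OE*, against 75.1, 73.3 and 72.9 in vector leaves (-1.98, SE 0.29, adjusted p = 0.00153 from limma). *AGL24*, a MADS promoter of flowering, fell by 1.43 (SE 0.16), *FY* by 0.67 (SE 0.15) and *LD* by 0.51 (SE 0.16, adjusted p = 0.0483). Promoters of flowering and a repressor were thus among the falls. *FD*, the bZIP partner of florigen, had 0.05 (SE 0.15) at an intensity below 11 on all 6 arrays.

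Of 12 genes of leaf growth and patterning, 4 fell, 1 rose and 7 did not pass, with a median of -0.18. *STOMAGEN*, a peptide from the mesophyll that raises stomatal density, had 15.2, 9.65 and 11.9 in *MeGRXC15-OE*, against 31.8, 138 and 114 in vector leaves (-2.72, SE 0.54, adjusted p = 0.00686 from limma). *GIS*, a zinc finger factor of trichome formation, had 19.6, 21.3 and 20.3, against 204, 125 and 44.7 (-2.36, SE 0.46, adjusted p = 0.00628). The controls spread over more than 4-fold in both genes, and the lines did not overlap with them. Neither *STOMAGEN* (adjusted p = 0.094) nor *GIS* (0.109) passed in the ordinary test.

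*TRY*, a small MYB repressor of trichomes, had 23.5, 19.1 and 20.1 in *MeGRXC15-OE*, against 74.3, 107 and 47.0 in vector leaves (-1.79, SE 0.42, adjusted p = 0.0157 from limma), and was not called without vector replicate 2 (adjusted p = 0.0624) or in the ordinary test (0.0613). *TCP15*, a growth regulator, fell by 0.84 (SE 0.19). *ARL*, which promotes cell expansion, rose by 0.95 (SE 0.26) and was lost without *MeGRXC15-OE* replicate 1 (adjusted p = 0.0645) or 3 (0.082), or vector replicate 2 (0.0782) or 3 (0.0947). The stomatal lineage factors *SPCH* (0.20, SE 0.10), *MUTE* (0.09, SE 0.13) and *FMA* (-0.10, SE 0.16) did not pass and were dim in these mature leaves, at 24.0 or less.

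Other lists moved in few members. Of 6 genes of protein folding in the endoplasmic reticulum, 2 rose, *BZIP60*, with 884, 1003 and 1401 in *MeGRXC15-OE*, against 346, 328 and 260 in vector leaves (1.80, SE 0.23, adjusted p = 8.9e-04 from limma), and *BZIP28* (0.69, SE 0.17). Both encode bZIP factors, while the chaperone genes *CRT1b* (-0.75, SE 0.40) and *ATERDJ3B* (-0.17, SE 0.45) did not pass. *BZIP28* lost its call without vector replicate 1 (adjusted p = 0.0548) or 2 (0.0597). Of 12 genes of respiration and fermentation, *PDC2*, a pyruvate decarboxylase, rose, with 440, 542 and 683, against 104, 88.7 and 69.4 (2.67, SE 0.28, adjusted p = 3.58e-04). None of the other 11 passed, but 2 were lower at an unadjusted p under 0.05 and 1 in an ordinary two-sample test. In the mitochondrial list 2 fell without vector replicate 3 and 1 without *MeGRXC15-OE* replicate 3.

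Among 9 histone and chromatin genes, *HON4*, a linker histone H1-type gene, rose by 1.35 (SE 0.16, adjusted p = 5.59e-04 from limma) and *DME*, a DNA glycosylase that removes methylated cytosine, by 0.68 (SE 0.16, adjusted p = 0.0509 without vector replicate 2). Of 6 gibberellin genes, the receptor gene *GID1A* rose by 1.03 (SE 0.20), while *GID1B* (0.08, SE 0.19) and *GID1C* (0.13, SE 0.19) did not pass. Of 5 metal genes, *CCS*, the copper chaperone of superoxide dismutase, fell by 1.22 (SE 0.25) and the metallothionein gene *MT1C* by 0.68 (SE 0.19). *MT1C* lost its call when arrays were centred on their medians (adjusted p = 0.0516), with a replicate block (0.0515), and without *MeGRXC15-OE* replicate 2 or 3 or any single vector replicate (0.0717 to 0.119).

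None of 5 heat shock genes passed in either direction by limma, nor at an unadjusted p under 0.05 or in an ordinary two-sample test, but 2 fell without *MeGRXC15-OE* replicate 3. The cochaperone gene *Hop2* had 171, 161 and 350 in *MeGRXC15-OE*, against 331, 326 and 285 in vector leaves (-0.56, SE 0.27), and without *MeGRXC15-OE* replicate 3 it passed (-0.92, adjusted p = 0.0034 from limma). In lists with fewer genes, *HPR*, a photorespiratory reductase, fell by 0.81 (SE 0.12), *LYC*, lycopene cyclase, by 1.54 (SE 0.21), *EIF4A-2*, an initiation factor, by 0.84 (SE 0.16) and *SAMDC*, of polyamine synthesis, by 0.73 (SE 0.10). *SHN3*, a regulator of the cuticle, rose by 0.62 (SE 0.15) and was lost without *MeGRXC15-OE* replicate 1 (adjusted p = 0.059) or vector replicate 1 (0.056) or 3 (0.0623).

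Wall and glycoside families mixed both directions, counted after the values were seen. Of 47 UGT genes, which link sugars to small molecules, 10 rose and 7 fell, and of 22 TBL genes 2 rose and 5 fell. Of 9 XTH genes 2 rose and 1 fell, and of 20 BGLU genes 2 rose and 2 fell. Of 4 expansin-like genes 2 rose and none fell, and no gene of 10 in the EXPA family was called. Over all probe sets 9.22% rose and 12.8% fell. *EXLA1*, an expansin-like gene, had 1306, 1427 and 1354 in *MeGRXC15-OE*, against 31.8, 52.4 and 155 in vector leaves (4.42, SE 0.52, adjusted p = 5.8e-04 from limma). The xyloglucan enzyme genes *XTH18* (3.25, adjusted p = 4.23e-04) and *XTH32* (-3.03, adjusted p = 0.00355) changed in opposite directions, as did the beta-glucosidase genes *BGLU44* (2.74, SE 0.24) and *BGLU40* (-2.87, SE 0.33).

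The lines disagreed on a few bright genes. *PDF1.2*, a defensin gene of the jasmonate and ethylene response, had 3410 and 5617 in lines 3 and 9 but 7.89 in line 12, against 7.03, 7.04 and 7.61 in vector leaves (6.20, SE 2.43, adjusted p = 0.109 from limma). *PDF1.2b* had 4212, 5997 and 36.0, against 39.1, 27.7 and 32.3 (4.89, SE 1.80, adjusted p = 0.0911). Line 12 was thus at the vector level in both, and without *MeGRXC15-OE* replicate 3, this line, both passed (9.24, adjusted p = 0.00448, and 7.26, adjusted p = 0.00179).

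*AT3G23550*, with 115, 866 and 21.0 in *MeGRXC15-OE* and 17.7 to 23.2 in vector leaves, and *AT4G16260*, with 129, 295 and 9.48 against 11.8 to 21.1, showed the same order of lines. They also passed without *MeGRXC15-OE* replicate 3 (adjusted p = 0.0108 and 0.0102 from limma). Line 12 was highest and line 9 lowest in *AT5G39520*, at 558, 36.8 and 2332 against 58.8 to 394 in vector leaves, and in *AT2G20560*, at 174, 34.5 and 959 against 116 to 231. Neither passed the test.

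**Figure D5:**
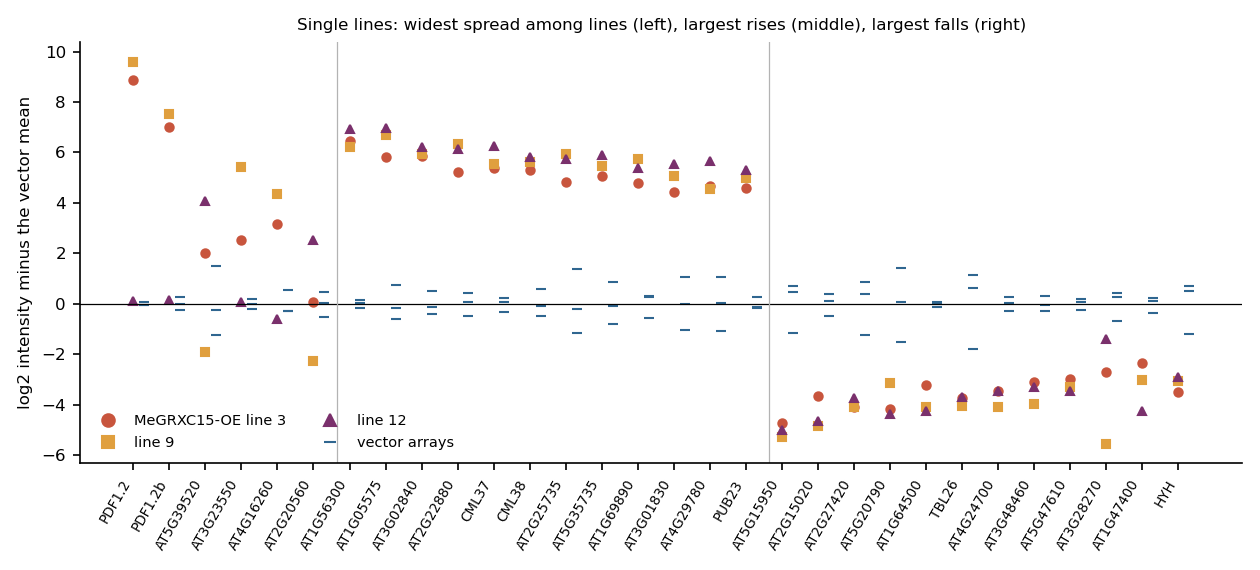
log2 intensity minus the vector mean (y axis) of each *MeGRXC15-OE* line (symbols) and each vector array (dashes), for 6 genes that spread widest among lines, then 12 that rose most and 12 that fell most. In *PDF1.2* and *PDF1.2b* line 12 sits at the vector level while lines 3 and 9 lie 7 or more above it, whereas in the 12 rises all lines lie more than 4 above it.

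Few probe sets were called when both overexpressions were set against each other, which does not show that the others were alike. The direct contrast called 33 of 22746 probe sets (0.145%), 13 higher and 20 lower in *MeGRXC15-OE*, while 1464 and 1612 had an unadjusted p under 0.05. Of the 33, 20 have a gene name. *WRKY53*, a regulator of senescence, had 1152, 1005 and 1195 in *MeGRXC15-OE* and 381, 223 and 438 in MeGRX360-OE, against 37.4, 54.7 and 42.8 in vector leaves. The difference from MeGRX360-OE was 1.74 (log2, SE 0.25, adjusted p = 0.0482 by limma).

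*AT5G66650* had 116, 108 and 127 in *MeGRXC15-OE*, 28.2, 26.1 and 36.7 in MeGRX360-OE and 11.4, 13.9 and 13.7 in vector leaves, a difference between both overexpressions of 1.96 (SE 0.15, adjusted p = 0.00634 from limma). *CRK11*, a receptor-like kinase gene, had 22.2, 20.5 and 30.8 in *MeGRXC15-OE*, 8.37, 8.37 and 9.92 in MeGRX360-OE and 6.24 to 7.10 in vector leaves (1.44, SE 0.16, adjusted p = 0.024). In the other direction *AT1G76240* had 24.7, 24.0 and 25 in *MeGRXC15-OE*, 80.4, 109 and 88.1 in MeGRX360-OE and 55.9, 65.3 and 79.6 in vector leaves (-1.90, SE 0.16, adjusted p = 0.00634). The number of calls in this contrast moved with single arrays. It was 177 without *MeGRXC15-OE* replicate 2 and 16 without replicate 1 or 3, 141 without MeGRX360-OE replicate 1 and 4 without replicate 2 or 3, and 7, 9 and 13 without vector replicates 1, 2 and 3.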

How the data were processed

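The authors hybridized leaf RNA to Affymetrix ATH1 arrays and deposited 1 normalized intensity per probe set and array on a linear scale. The submitters' processing notes name RMA (version not given in the sources used here), and how its values came to a linear scale is unknown. Array medians were 28.11 to 30.16, so log2, which the planned test had assumed, was taken and no further normalization applied.

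The 64 control probe sets were left out. limma 3.58.1 in R 4.3.3 fitted 1 mean for each of 3 groups over 9 arrays (6 residual and 2.76 prior degrees of freedom), so the MeGRX360-OE arrays shared in the estimate of the spread, with Benjamini-Hochberg adjustment over 22746 probe sets. On simulated data for *MeGRXC15-OE* against vector, 63 of 100 planted log2 changes of 1 and 92 of 100 of 2 were recovered over 22746 probe sets, with 15 false calls. The simulated noise was independent between probe sets, and far fewer changes were planted than were called in the data. These rates therefore need not hold for the data.

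The platform annotation named 13513 probe sets with 1 gene (13436 of them in RefSeq TAIR10.1), 503 with several, left unnamed, and left 8730 without a name here. Lists used these names and the brightest probe set of a gene. A further 429 probe sets were named through the study's gene ontology listing, of which 818 terms were whole and 27 shortened. The shortened terms were used for names but not for term counts. Of 103 probe sets named by both sources 100 had the same locus. Of 190 genes tested for stability, 132 followed the rule: the 12 largest rises and falls without overlap, the 6 brightest rises and falls of at least 2-fold, up to 4 called and 2 other members of each list, and the 6 widest spreads among lines. The other 58 were chosen after their values were seen. In 4 cases a symbol belonged to another gene than the list meant, and the match was dropped. The members and lists were chosen with earlier results of these data known. Fold changes in the text are log2. Promoter motifs were not analysed here. Figures and tables were made with Python 3.11.15, pandas 2.3.3, numpy 2.4.6 and matplotlib 3.10.9.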

Additional observations from a re-analysis of the deposited data

Results flagged for a closer look

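The effect of *MeGRXC15* differed from that of the gene titled MeGRX360 in 20 probe sets with a gene name, tested in the direct contrast of both overexpression groups (limma, adjusted p under 0.05, 3 arrays each; the difference is *MeGRXC15-OE* minus MeGRX360-OE on the log2 scale). Higher in *MeGRXC15-OE* were *AT2G38465* (2.99), *AT5G66650* (1.96), *AT4G30450* (1.80), *WRKY53* (1.74), *AT5G46080* (1.68), *AT2G27310* (1.60), *CRK11* (1.44), *AT4G19390* (1.15), *AT5G58680* (1.11), *AT1G52720* (1.09) and *AT4G28460* (0.77). Lower were *AT4G24780* (-2.21), *AT1G76240* (-1.90), *AT5G59060* (-1.50), *LHY* (-1.49), *AT5G02830* (-1.35), *VTC4* (-1.31), *APR2* (-1.11), *FBA1* (-0.97) and *AT2G24060* (-0.87). *AT4G30450* was lowered in both groups against vector, less so in *MeGRXC15-OE* (-1.92) than in MeGRX360-OE (-3.72). *AT5G59060* did not differ past the threshold between *MeGRXC15-OE* and vector leaves (-0.02, adjusted p = 0.922).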

How the results depend on the processing

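The ordinary two-sample test lowered the calls between *MeGRXC15-OE* and vector to 967 higher and 1194 lower, and past 2-fold to 660 and 695. An unadjusted p raised the rises to 3299. Array weights gave 3045 and 3790, the 6 arrays without MeGRX360-OE 1932 and 2741, and the other settings stayed within 1.5 times, as did leaving out single replicates, with 1436 to 2104 higher and 2035 to 2853 lower, and past 2-fold 978 to 1189 and 1155 to 1418. Same-numbered *MeGRXC15-OE* and vector arrays deviated with correlations of -0.204, -0.00151 and -0.18, and differently numbered ones with -0.0681 to 0.194. As deviations were taken within groups of 3 arrays, these correlations cannot decide whether the numbers pair the samples. A replicate block gave 2002 higher and 2722 lower. The direct contrast with MeGRX360-OE, whose alternatives were chosen after seeing the data, gave 530 calls with array weights, 21 with arrays centred on medians, 25 with a replicate block and 4 to 177 without single replicates. The cause was not tested. Of 190 genes followed through these settings, none changed direction with a call. In these, 50 lost their call in the ordinary test, and 4 to 14 when a single replicate was left out. The loss in the ordinary test is given above for only some of the 50. Of 456 list counts under alternatives, 407 stayed within 1.5 times. Motif shares of promoters were not run.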
